A study of Mus musculus with 6 samples.

Results

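The genes described here are 10 genes of the differentiated surface epithelium of the colon, namely Tmigd1, Clca4a, Clca4b, Guca2a, Guca2b, Krt20, Ceacam1, Ceacam20, Emp1 and Plac8. They were chosen by name, and each is represented by its brightest probe set among those annotated to that gene alone. All 10 were measured, among 18193 genes. Total RNA came from distal and proximal colon of female C57BL/6J mice, an inbred strain, that had no treatment, with 3 libraries labelled distal and 3 labelled proximal, each on 1 array. Per the design text, 3 animals gave both tissues. The labels give neither the age of the mice nor the layers of the gut wall that were taken, nor do they say which numbers share an animal.

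The colonic epithelium renews itself from stem cells at the crypt base. Daughter cells divide, move up the crypt wall, stop dividing and differentiate, and the oldest absorptive cells line the surface between crypts before they are shed. Surface colonocytes take up salt, water and short chain fatty acids, and carry a brush border and a coat of adhesion molecules. They also secrete guanylin peptides, which bind the receptor guanylate cyclase C on the same epithelium and raise cyclic GMP.

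A pair of libraries went against their labels in genes of position along the gut. Hoxb13, a homeobox gene expressed at the tail end of the body, had a log2 expression of 13.78, 13.29 and 6.65 in the libraries labelled distal 1, 2 and 3, against 13.39, 6.53 and 6.48 in those labelled proximal 1, 2 and 3. Hoxd13 gave 12.69, 12.62 and 4.90 in the distal libraries and 12.54, 4.83 and 5.11 in the proximal ones, in the same order. Slc51a, which encodes a subunit of a bile acid exporter, ran the other way, at 5.07, 5.94 and 12.05 in distal and 5.83, 12.47 and 12.39 in proximal libraries. Each difference of the 10 genes is therefore given with all 6 libraries as labelled and with 4 libraries, without those labelled distal 3 and proximal 1. For the lists of other genes, counts and differences come from the 4 libraries unless said otherwise. As labelled, 0 genes of any list passed by limma, with 1 leukocyte gene and 1 gene of enteric neurons and glia at an unadjusted p of 0.05. No library was moved to another label. The choice of the 4 libraries was made with their profiles known, so p-values from them describe those libraries only. The design text calls the 3 animals biological replicates. P-values from all 6 libraries and from the 4 alike treat each library as independent, without a term for the animal that gave both tissues.

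Epithelial RNA was abundant in every library. Epcam, an adhesion molecule of all epithelial cells, lay between 14.14 and 14.31 in the 6 libraries, and Krt8, a keratin of simple epithelium, between 14.48 and 14.66. Smooth muscle genes were also present, with a mean log2 level of the 8 genes measured between 12.97 and 13.41. The tissue therefore held smooth muscle as well as epithelium. Pancreatic acinar genes were high in 2 libraries: the mean of 6 such genes was 12.27 in the library labelled distal 1 and 12.22 in that labelled proximal 1, against 5.54 to 6.10 in the other 4. The part of this RNA in the results below was not tested. Values without the library labelled distal 1 are given for some of the 10 genes and not for the lists. In bulk tissue, fewer cells of a type and less RNA per cell cannot be told apart.

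Across the 4 libraries, 6 of the 10 genes were lower in distal colon, 1 was higher and 3 did not pass. Tmigd1 and Clca4b were more than 10-fold lower, Emp1, Clca4a and Guca2b between 2.34-fold and 2.86-fold lower, and Krt20 1.40-fold lower. Ceacam20 was 2.03-fold higher, while Guca2a, Ceacam1 and Plac8 did not pass. The median difference of the 10 genes, distal minus proximal, was -0.86 on the log2 scale, beside -0.045 over all genes. At an unadjusted p of 0.05 limma counted 8 of the 10, beside 35% of all genes. Limma called 3494 of all genes (19.2%) at an adjusted p of 0.05, 2092 lower in distal colon (11.5%) and 1402 higher (7.71%). These calls rest on variance shared across genes: a plain linear model called 20 genes and 0 of the 10. Of the limma calls 40.1% were higher in distal colon, a share that became 50.2% with quantile normalization, 54.7% with each array centred on its median, and 62.3% and 89.9% when centred on the median or the mean of 10 pan-epithelial genes.

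With all 6 libraries as labelled, 0 of the 10 genes passed, as did 0 of all genes (0%). At an unadjusted p of 0.05 limma counted 2 of the 10, Clca4b and Ceacam20, and 554 of all genes (3.05%), and a plain linear model without shared variance counted 1 of the 10 and 607 of all genes. As labelled, 9 of the 10 genes were lower in distal colon on average, with a median difference of -0.31, beside -0.02 over all genes. The values of the 3 distal and 3 proximal libraries did not overlap for 1 of the 10, Ceacam20, where distal was higher, beside 7.33% of all genes, of which distal was higher for 2.73% and lower for 4.6%. Within the 4 libraries the groups did not overlap for 8 of the 10 genes, 7 lower and 1 higher in distal colon, beside 62.2% of all genes (36.6% lower and 25.6% higher).

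**Figure D1:**
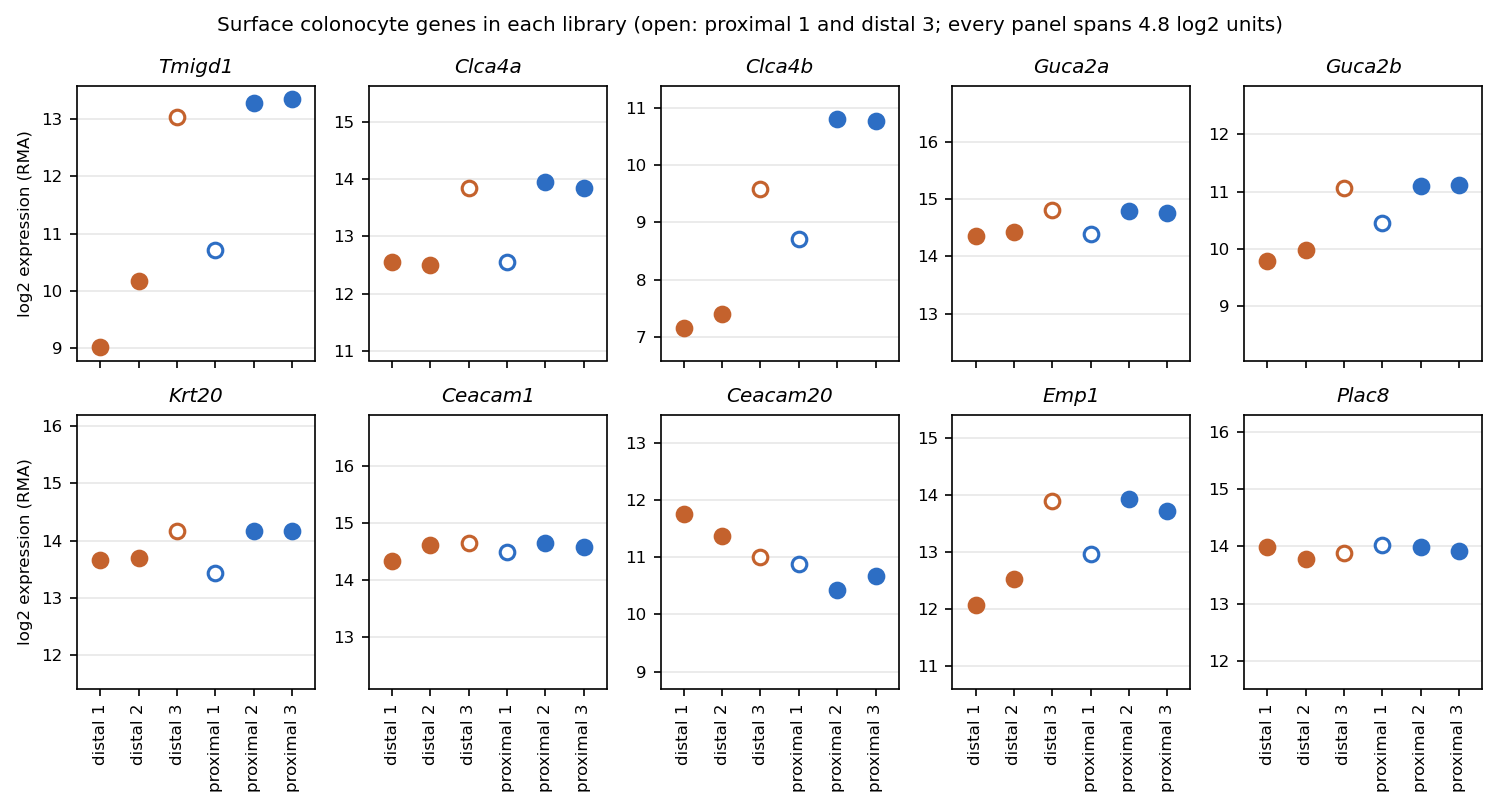
Log2 expression (RMA, vertical axis) of the 10 genes in each library, distal in orange and proximal in blue, with the libraries labelled distal 3 and proximal 1 as open circles; every panel spans the same range of 4.8 log2 units. Tmigd1 and Clca4b span the widest ranges, 4.34 and 3.65, and Plac8 the narrowest, 0.24.

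**Figure D2:**
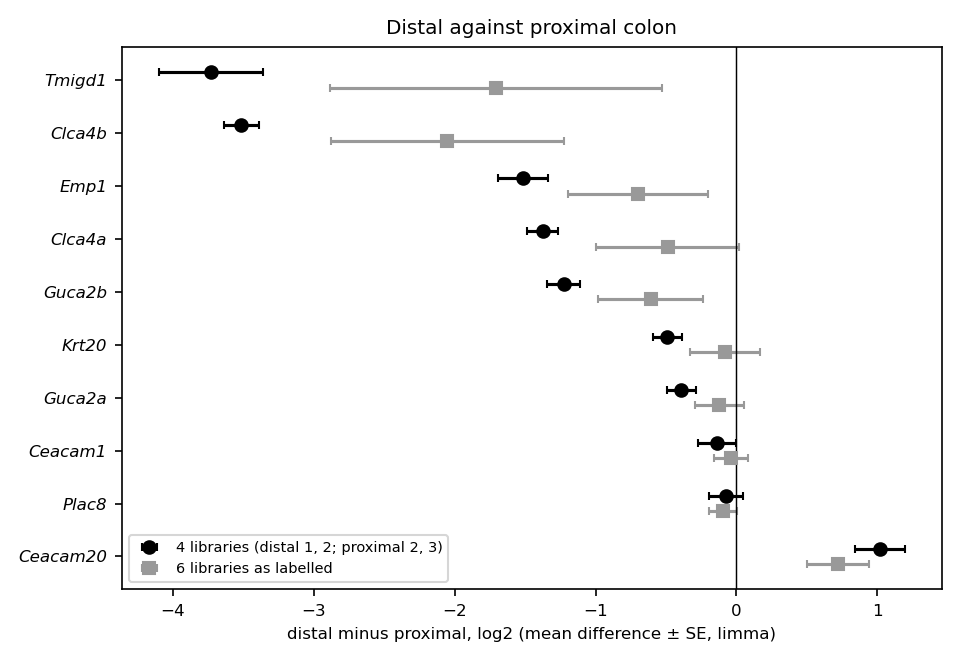
Distal minus proximal difference on the log2 scale for each gene, as the limma estimate with its SE, from 4 libraries (black circles) and from all 6 as labelled (grey squares). In the 4 libraries Tmigd1 lies at -3.73 and Ceacam20 at 1.02, and the 6-library errors are wider for all genes but Ceacam1 and Plac8.

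Start regions are shown for the 2 genes with the largest differences, for the neighbouring pair Guca2b and Guca2a, of which 1 passed, and for Ceacam20, which ran the other way. Each window holds 250 bases before and 50 after a RefSeq transcript start in GRCm38.p6, read in the direction of the gene, and capitals mark matches to any of 4 motifs. The motifs, searched on both strands, were TATAAA for the box that many promoters carry close to the start, GTTAAT for part of the HNF1 site, TTTATG for a site of CDX factors and CAAAGTC for the core of HNF4 sites. Matches can overlap one another in part. The windows are Tmigd1 at chr11:76901909-76902208 on the + strand, the second of its 2 starts, Clca4b at chr3:144932480-144932779 on the - strand, Guca2b at chr4:119658896-119659195 on the - strand, Guca2a at chr4:119637482-119637781 on the + strand, and Ceacam20 at chr7:19965162-19965461 on the + strand.
Tmigd1: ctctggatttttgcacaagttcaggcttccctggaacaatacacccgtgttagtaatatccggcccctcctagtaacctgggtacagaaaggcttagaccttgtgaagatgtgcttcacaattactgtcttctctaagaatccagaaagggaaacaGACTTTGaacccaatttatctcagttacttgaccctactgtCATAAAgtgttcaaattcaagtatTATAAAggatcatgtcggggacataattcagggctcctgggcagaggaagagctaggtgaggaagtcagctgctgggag
Clca4b: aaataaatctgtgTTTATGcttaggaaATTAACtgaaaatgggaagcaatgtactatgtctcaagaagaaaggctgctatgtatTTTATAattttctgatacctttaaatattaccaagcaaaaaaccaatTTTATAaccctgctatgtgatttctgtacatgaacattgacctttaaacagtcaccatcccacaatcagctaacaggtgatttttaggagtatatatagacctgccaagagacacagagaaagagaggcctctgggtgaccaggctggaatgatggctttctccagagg
Guca2b: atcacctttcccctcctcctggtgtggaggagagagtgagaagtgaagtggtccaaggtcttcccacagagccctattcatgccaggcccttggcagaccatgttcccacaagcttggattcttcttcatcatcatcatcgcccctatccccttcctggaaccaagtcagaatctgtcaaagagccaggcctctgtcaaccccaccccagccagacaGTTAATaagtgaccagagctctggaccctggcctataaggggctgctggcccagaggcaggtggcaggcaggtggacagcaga
Guca2a: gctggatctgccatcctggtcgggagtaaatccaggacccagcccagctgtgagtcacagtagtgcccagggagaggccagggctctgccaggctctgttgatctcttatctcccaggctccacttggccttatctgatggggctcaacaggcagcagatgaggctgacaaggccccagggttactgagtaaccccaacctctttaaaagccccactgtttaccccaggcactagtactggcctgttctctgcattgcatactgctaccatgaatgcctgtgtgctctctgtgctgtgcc
Ceacam20: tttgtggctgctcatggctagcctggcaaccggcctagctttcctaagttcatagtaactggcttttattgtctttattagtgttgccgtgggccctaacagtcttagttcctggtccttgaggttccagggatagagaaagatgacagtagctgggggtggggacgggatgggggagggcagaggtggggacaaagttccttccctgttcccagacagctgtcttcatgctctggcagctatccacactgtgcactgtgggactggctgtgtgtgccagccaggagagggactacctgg
The Tmigd1 window holds TATAAA 29 bases before the start. It also holds CATAAA, the reverse complement of the CDX site, at 53, and GACTTTG, the reverse complement of the HNF4 core, at 94. The other Tmigd1 window, at chr11:76890870-76891169, holds 0 matches. The Clca4b window holds the CDX site at 237 bases before the start, the reverse complement of GTTAAT at 223 and that of TATAAA at 166 and 119. Guca2b has GTTAAT at 33 bases before its start, and the windows of Guca2a and Ceacam20 hold 0 matches. Windows were given for 9 of the 10 genes, 12 windows in all. On either strand, 3 of these held TATAAA, 2 GTTAAT, 3 TTTATG and 1 CAAAGTC. Over all 32851 windows the shares were 13.6%, 7.10%, 11.9% and 4.44%. A match describes letters only. Similar stretches that differ from the searched letters, such as tatatata in the Clca4b window, are not marked.

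The largest difference among the 10 genes was that of Tmigd1, an immunoglobulin domain adhesion protein of differentiated intestinal epithelial cells. It had 9.01, 10.17 and 13.04 in the libraries labelled distal 1, 2 and 3, against 10.71, 13.29 and 13.35 in those labelled proximal 1, 2 and 3. Distal 1 was lowest and distal 2 next, while the library labelled distal 3 stood close below proximal 2 and 3. The 4-library mean was 9.59 ± 0.82 in distal and 13.32 ± 0.042 in proximal colon (SD, n = 2 each). The difference was -3.73 (SE 0.37, limma adjusted p = 0.0039), a 13.3-fold lower level. As labelled it was -1.71 (SE 1.18, limma adjusted p = 0.824). The 2 distal libraries differed by 1.16 from each other, and without distal 1 the difference was -3.15 (limma adjusted p = 0.049). With 1 proximal library left out of the 4 it kept its size, -3.76 without proximal 2 and -3.70 without proximal 3, at limma adjusted p = 0.095 and 0.104.

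Clca4a and Clca4b encode secreted or surface proteins of the CLCA family, once taken for chloride channels. They are neighbours in a cluster whose order in the RefSeq annotation is Clca3a1, Clca3a2, Clca3b, Clca4b, Clca4a, Clca1 and Clca2. Clca4b had 7.16, 7.39 and 9.58 in the libraries labelled distal 1 to 3, against 8.71, 10.81 and 10.77 in those labelled proximal 1 to 3. The libraries labelled distal 3 and proximal 1 lay between the other pairs. The 2 low distal values are not far above 6.54, the lower quartile over genes, and near background the array may not follow further decreases. Its difference in the 4 libraries was -3.515 (SE 0.12, limma adjusted p = 0.00024), 11.4-fold lower in distal colon. It passed with any 1 of the 4 libraries left out, at -3.63 to -3.40. As labelled the difference was -2.05 (SE 0.83, limma adjusted p = 0.824).

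Clca4a was measured at 12.55, 12.50 and 13.84 in the distal libraries and at 12.55, 13.96 and 13.84 in the proximal ones. The library labelled proximal 1 equalled distal 1, and the library labelled distal 3 equalled proximal 3. Within the 4 libraries the difference was -1.375 (SE 0.11, limma adjusted p = 0.0023), 2.59-fold lower in distal colon, and as labelled -0.49 (SE 0.51, limma adjusted p = 0.832). Without distal 1 the 4-library difference was -1.4. Without proximal 2, proximal 3 or distal 2 its size stayed between -1.435 and -1.315 and the limma adjusted p was between 0.054 and 0.082. Of 5 measured relatives, 1 was higher in distal colon, 0 were lower and 4 did not pass. Clca1, a secreted goblet cell product, passed at 0.625 (SE 0.11, limma adjusted p = 0.020), and as labelled its difference was 0.36 (SE 0.24, limma adjusted p = 0.824). Those that did not pass were Clca2 (1.39, SE 0.57, limma adjusted p = 0.154), Clca3a1 (0.435), Clca3b (-0.06) and Clca3a2 (-0.05). The median difference of the 5 was 0.435, and 0.133 as labelled.

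Guca2a and Guca2b encode guanylin and uroguanylin, the peptide ligands of guanylate cyclase C, and lie next to each other. Guca2b had 9.78, 9.97 and 11.07 in the libraries labelled distal 1, 2 and 3, against 10.45, 11.09 and 11.11 in the proximal ones. The 2 proximal libraries of the 4 differed from each other by 0.02 and the 2 distal ones by 0.19. The difference was -1.225 (SE 0.12, limma adjusted p = 0.0036), 2.34-fold lower in distal colon, and as labelled -0.61 (SE 0.37, limma adjusted p = 0.824). Without distal 1 it was -1.13 (limma adjusted p = 0.049), and without proximal 2 or proximal 3 it was -1.235 or -1.215 with limma adjusted p = 0.100 or 0.110.

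Guca2a had the same 3 lowest libraries and a smaller range. It had 14.35, 14.42 and 14.81 in distal and 14.40, 14.79 and 14.76 in proximal libraries. Those labelled distal 1, proximal 1 and distal 2 were lowest, in that order. Its difference of -0.39 (SE 0.10) did not pass in the 4 libraries (limma adjusted p = 0.057), nor as labelled at -0.12 (SE 0.17, limma adjusted p = 0.857). These values lie close to the highest of any gene on any array, 15.07, and whether the scale is compressed there was not tested. In the 4 libraries it passed when genes dimmer than the median gene were left out (limma adjusted p = 0.023), with the mean of each gene's probe sets (0.045) and with a trended robust prior (0.0023), and over all 6 with array weights (0.036). Those weights gave little part to the libraries labelled distal 3 (0.29) and proximal 1 (0.32), but also to distal 2 (0.40). They rested mainly on proximal 2 (6.72), distal 1 (2.505) and proximal 3 (1.57). Other settings did not call Guca2a. With median centring it kept its sign (-0.30, limma adjusted p = 0.115), and its sign turned when arrays were centred on the mean of pan-epithelial genes (0.033).

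The remaining genes of guanylin signalling were taken as a list of 7. In the 4 libraries 1 was lower in distal colon, 0 were higher and 6 did not pass. The one that passed was Prkg2, the cyclic GMP-dependent kinase that acts downstream of guanylate cyclase C in the epithelium. Prkg2 had 7.65, 9.07 and 12.00 in the libraries labelled distal 1 to 3, against 8.69, 11.35 and 11.47 in those labelled proximal 1 to 3, with the library labelled distal 3 the highest of all. Its difference was -3.05 (SE 0.45, limma adjusted p = 0.012), and as labelled -0.93 (SE 1.25, limma adjusted p = 0.853). Gucy2c, the receptor itself, differed by -0.43 (SE 0.13, limma adjusted p = 0.071). Cftr, the chloride channel that cyclic GMP signalling opens, differed by 0.075, and Slc9a3, the sodium-proton exchanger that it inhibits, by 0.04. The list's median difference was 0.04, and 0.043 as labelled.

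Krt20, a keratin of differentiated gut epithelium, had 13.66, 13.70 and 14.17 in the libraries labelled distal 1, 2 and 3, against 13.43, 14.17 and 14.17 in those labelled proximal 1, 2 and 3. The library labelled proximal 1 was the lowest of the 6, below both distal 1 and 2. Without the pair in doubt the difference was -0.49 (SE 0.10, limma adjusted p = 0.031), 1.40-fold lower in distal colon. It did not pass with any 1 of the 4 libraries left out, nor with each array centred on its median or on pan-epithelial genes. As labelled the difference was -0.08 (SE 0.25, limma adjusted p = 0.936), and it was 0.043 without proximal 2 or without proximal 3 and 0.012 without distal 1. The other simple epithelial keratins did not pass: of 5, 0 were higher and 0 lower in distal colon, with a median difference of -0.055 (0.003 as labelled) and 1 at an unadjusted p of 0.05. Krt7 differed by -0.345 (SE 0.11, limma adjusted p = 0.087) and Krt23 by 0.36 (SE 0.15, limma adjusted p = 0.150).

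Emp1, a tetraspan membrane protein found in many epithelia, had 12.08, 12.52 and 13.89 in the distal libraries, against 12.96, 13.92 and 13.71 in the proximal ones. The library labelled distal 3 stood among the proximal ones and proximal 1 between the groups. Over the 4 libraries it was 2.86-fold lower in distal colon, with a difference of -1.515 (SE 0.18, limma adjusted p = 0.0065). As labelled the difference was -0.70 (SE 0.50, limma adjusted p = 0.824). With 1 of the 4 libraries left out the difference lay between -1.735 and -1.295 and did not pass. The second, much dimmer probe set of Emp1 went the same way (-0.745, SE 0.18, limma adjusted p = 0.036 over all probe sets). Of 4 relatives of Emp1 and Plac8, 1 was higher and 0 lower in distal colon. This was Emp2, at 0.67 (SE 0.11, limma adjusted p = 0.017), opposite to Emp1, and at 0.067 (SE 0.35, limma adjusted p = 0.963) as labelled. The median of the 4 relatives was 0.325, and 0.013 as labelled.

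Ceacam20 opposed the other genes that passed. It encodes an adhesion molecule of the CEA family that sits on the microvilli of intestinal epithelial cells. Ceacam20 stood at 11.76, 11.37 and 11.0 in the libraries labelled distal 1, 2 and 3, against 10.88, 10.42 and 10.67 in those labelled proximal 1, 2 and 3. All 3 distal values lay above all 3 proximal values, also as labelled. The difference in the 4 libraries was 1.02 (SE 0.17, limma adjusted p = 0.018), and as labelled 0.72 (SE 0.22, limma adjusted p = 0.824). With 1 of the 4 libraries left out it lay between 0.825 and 1.215 and did not pass, at limma adjusted p of 0.069 to 0.205.

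Ceacam1, the broadly expressed founder of this family, is found on epithelial cells, leukocytes and endothelium. It had 14.33, 14.61 and 14.65 in the distal libraries and 14.49, 14.64 and 14.58 in the proximal ones. The groups overlapped, and distal 1 was the lowest. The mean level of Ceacam1 lay at percentile 99.9 among genes, and whether the scale is compressed there was not tested. Its difference was -0.14 (SE 0.13, limma adjusted p = 0.520) in the 4 libraries and -0.04 (SE 0.12, limma adjusted p = 0.935) as labelled. With 8 probe sets of its own, Ceacam1 shows how far the choice of probe set bears on such a gene. In the 4 libraries all 8 were lower in distal colon, by -0.475 to -0.065, and 0 passed by limma, with adjusted p between 0.076 and 0.828 over all probe sets. The brightest, which stands for the gene here, differed by less than 6 of the other 7. By the suffix of their names, 6 of the 8 may read more than 1 transcript, and 2 further ones are annotated to Ceacam1 and Ceacam2 together and were not used.

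**Figure D3:**
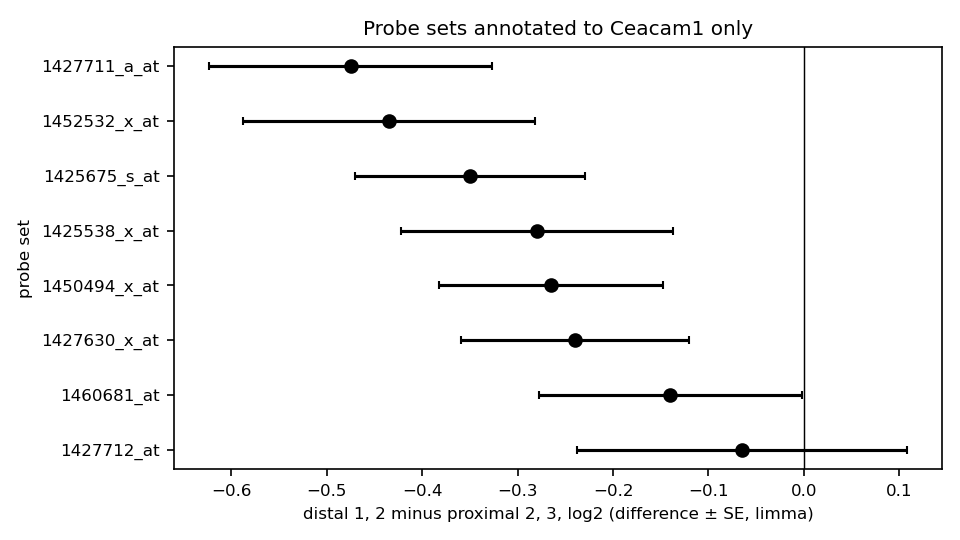
Distal minus proximal difference (log2, limma estimate with its SE, libraries labelled distal 1 and 2 against proximal 2 and 3) for each of the 8 probe sets annotated to Ceacam1 only. All 8 estimates lie between -0.475 and -0.065.

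Of 14 listed relatives and partners of the CEA family 9 were measured, of which 1 was lower and 2 were higher in distal colon. Ceacam12 measured 5.76, 7.52 and 10.36 in the distal libraries and 7.98, 9.64 and 9.74 in the proximal ones, with a difference of -3.05 (SE 0.55, limma adjusted p = 0.021) in the 4 libraries. Ceacam10 was higher in distal colon, at 1.055 (SE 0.11, limma adjusted p = 0.0046), with 13.14, 13.02 and 12.48 in distal and 13.50, 11.99 and 12.06 in proximal libraries. Ceacam9 also passed (0.555, SE 0.11, limma adjusted p = 0.029), with every value below 6.54. As labelled, Ceacam12 differed by -1.24 (SE 1.16), Ceacam10 by 0.36 (SE 0.43) and Ceacam9 by 0.27 (SE 0.20), and none of them passed. The list's median was -0.13 in the 4 libraries and -0.12 as labelled. Genes of this family are similar in sequence, so their probe sets can read one another's transcripts.

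Plac8, a small cysteine-rich protein of surface epithelium that leukocytes also make, varied least. It had 13.98, 13.78 and 13.88 in the distal libraries, against 14.02, 13.99 and 13.92 in the proximal ones. The groups overlapped in the 4 libraries, and the difference was -0.075 (SE 0.12, limma adjusted p = 0.713). As labelled it was -0.097 (SE 0.10, limma adjusted p = 0.831). The mean level of 11 leukocyte genes was 8.43, 8.47 and 8.25 in the distal and 8.69, 8.51 and 8.59 in the proximal libraries. Within that list 3 genes were lower and 2 were higher in distal colon in the 4 libraries, with a median of -0.195, and -0.253 as labelled. The T cell genes Cd8a (-1.835) and Cd3e (-1.33) were among the lower ones, and the B cell genes Ms4a1 (2.175) and Cd79a (1.465) were the higher ones. Their part in the values of Plac8 and Ceacam1 was not tested.

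The libraries labelled distal 3 and proximal 1 did not enter the 4-library fit, and their values were set on a scale between the other pairs, with 0% at the mean of distal 1 and 2 and 100% at the mean of proximal 2 and 3. Over the 3494 called genes the median position was 87.2% for the library labelled distal 3 (quartiles 70.8% and 101.5%) and 24.3% for that labelled proximal 1 (quartiles 1.7% and 49.2%). Tmigd1 lay at 92.5% in distal 3 and 30.0% in proximal 1, and Clca4a at 95.6% and 1.8%. Clca4b stood further inside, at 65.6% in distal 3 and 40.8% in proximal 1. Guca2b lay at 97.6% and 46.9%, and Emp1 at 105% and 43.6%, again with distal 3 given before proximal 1. Krt20 was at 100% in distal 3 and at -51.0% in proximal 1, outside the range of both pairs. Ceacam20 was the one gene in which distal 3 lay nearer the distal pair than proximal 1 did, at 55.4% and 67.2%. Both lay nearer the proximal pair than the distal one. Their values, 11.0 and 10.88, were closer to each other than the 2 distal (0.39 apart) or the 2 proximal libraries (0.25 apart).

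**Figure D4:**
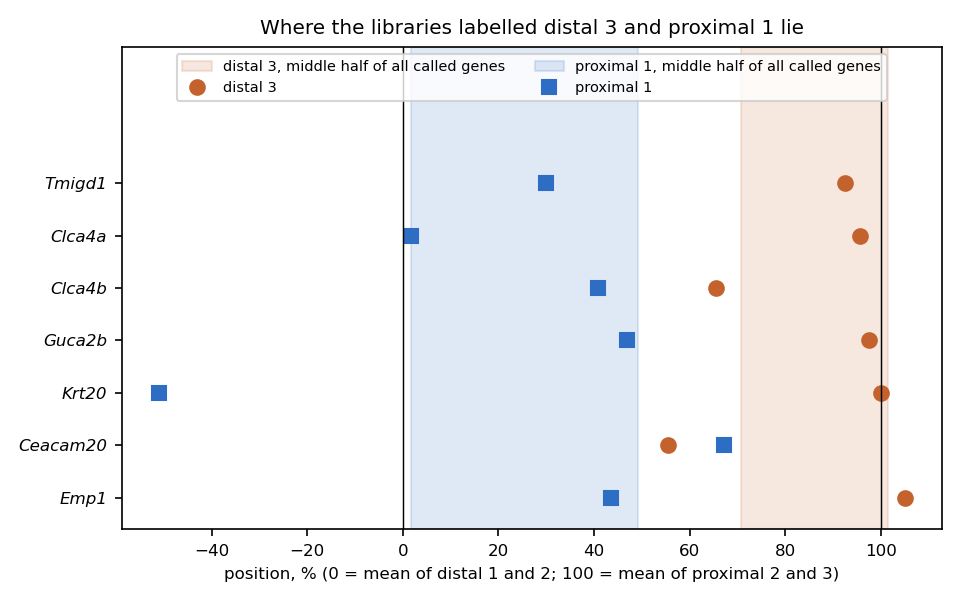
Position of the libraries labelled distal 3 (orange circles) and proximal 1 (blue squares) for the 7 genes that passed in the 4 libraries, in percent of the way from the mean of distal 1 and 2 to the mean of proximal 2 and 3. Shaded bands hold the middle of the same values over all 3494 called genes, 70.8% to 101.5% for distal 3 and 1.7% to 49.2% for proximal 1.

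Other genes of the absorptive surface were taken as a list of 20. In the 4 libraries 6 of these were lower and 1 was higher in distal colon, and 13 did not pass, with a median difference of -0.108, against -0.03 as labelled. The lower ones were led by Fabp2, a fatty acid binding protein (-1.405, SE 0.29, limma adjusted p = 0.029), Slc37a2, a phosphate-linked sugar phosphate exchanger (-1.045, SE 0.11, limma adjusted p = 0.0045), and the water channel Aqp8 (-0.715, SE 0.11, limma adjusted p = 0.014). Carbonic anhydrase Car4 was higher (0.595, SE 0.13, limma adjusted p = 0.033). Slc37a2 had 12.70, 12.59 and 13.34 in distal and 11.40, 13.72 and 13.66 in proximal libraries, and like Krt20 it was lowest in the library labelled proximal 1. Its difference as labelled was -0.05 (SE 0.64, limma adjusted p = 0.985), and that of Fabp2 -0.69 (SE 0.47, limma adjusted p = 0.824). Aqp8 was also lowest in the library labelled proximal 1 (12.61), but Fabp2 and Car4 were not. The mean log2 level of the 20 genes was lowest there too, at 13.50. It was 13.71, 13.72 and 13.88 in distal 1, 2 and 3, and 13.94 and 13.93 in proximal 2 and 3.

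General epithelial genes had small differences in the 4 libraries, with 1 exception. Of 10 pan-epithelial genes 1 was lower in distal colon and 9 did not pass, with differences of those between -0.275 for Tspan8 and 0.08 for Cdh1. Those 9 read between 13.14 and 14.77 in every library, where the 99th percentile of all gene values is 13.94. Whether the scale is compressed at such levels was not tested. The exception was Cldn4, a tight junction protein, with 7.20, 7.24 and 10.13 in distal and 7.43, 10.49 and 10.50 in proximal libraries (-3.275, SE 0.10, limma adjusted p = 0.00019; as labelled -1.28, SE 1.12, limma adjusted p = 0.824). The list's median was -0.092, and -0.012 as labelled. Relative to the median of these genes in each array, Tmigd1 differed by -3.59, Clca4b by -3.375 and Ceacam20 by 1.16 in the 4 libraries, all of which passed. This alternative was added after the data were seen.

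Crypt base genes differed in both directions in the 4 libraries. Of 12 measured, 4 were higher and 2 lower in distal colon, with a median difference of 0.452, against 0.142 as labelled. Smoc2 (0.75, SE 0.11) and Rnf43 (0.62, SE 0.13) were higher, and Cd44 (-0.93, SE 0.20) and Prom1 (-0.55, SE 0.13) were lower. As labelled these differences were 0.18 for Smoc2, 0.33 for Rnf43, -0.40 for Cd44 and -0.15 for Prom1, and none passed. Lgr5, the marker of the crypt base stem cell, did not pass (0.265, limma adjusted p = 0.383). Of 19 cell division genes 5 were lower and 0 were higher in distal colon, with a median of -0.345 (-0.19 as labelled), among them Rrm2 (-0.655), Aurka (-0.645), Cdk1 (-0.61) and Plk1 (-0.54). Mki67, the usual proliferation marker, did not pass (0.275, limma adjusted p = 0.332). Of 8 goblet cell genes only Clca1 passed.

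Genes of small intestinal epithelium were lower in distal colon in the 4 libraries. Of 6 measured 5 were lower and 0 were higher, with a median difference of -2.89. As labelled the median was -1.37 and the groups overlapped, with the library labelled proximal 1 close to distal 1 and 2. Apoa1 (-5.665, SE 0.31), Slc10a2 (-3.86, SE 0.14), Fabp6 (-3.06, SE 0.15) and Anpep (-2.72, SE 0.12) led them. The summed level of the 6 on the linear scale ranged from 1957 to 8054 in the 3 distal libraries and from 2032 to 20045 in the 3 proximal ones. Lct, the lactase of the small intestinal brush border, was below 6.54 in every library, and Slc10a2 was below it in the libraries labelled distal 1, distal 2 and proximal 1. Tmigd1 and Guca2b are among the genes also made in small intestine. The part of such RNA in their differences, or in those of any other surface gene here, was not tested.

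Markers of other tissues gave few calls in the 4 libraries. Of 8 smooth muscle genes 1 was higher in distal colon (Des, 0.615, SE 0.14, limma adjusted p = 0.037). None of 6 fibroblast, 5 endothelial, 5 enteric neuron and glia, 3 adipocyte and 6 pancreatic acinar genes passed by limma, with 1 fibroblast, 1 adipocyte and 0 of the other genes at an unadjusted p of 0.05. The pair with the largest differences were Col1a1 (0.335) and Col3a1 (0.225) for fibroblasts, Pecam1 (-0.375) and Kdr (-0.265) for endothelium, and Elavl4 (0.34) and Uchl1 (0.22) for neurons. They were Lep (-1.46) and Adipoq (-0.65) for adipocytes, and Cel (3.305) and Cpa1 (3.23) for acinar cells. Summed on the linear scale, the acinar genes ranged from 399 to 30061 in distal and from 447 to 29236 in proximal libraries, and smooth muscle genes from 103161 to 104993 in distal and from 79668 to 101128 in proximal libraries. Of 7 squamous genes only Krt14 passed (0.415, SE 0.10, limma adjusted p = 0.048), and Trp63, which defines squamous epithelium, was below 6.54 in every library.

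**Figure D5:**
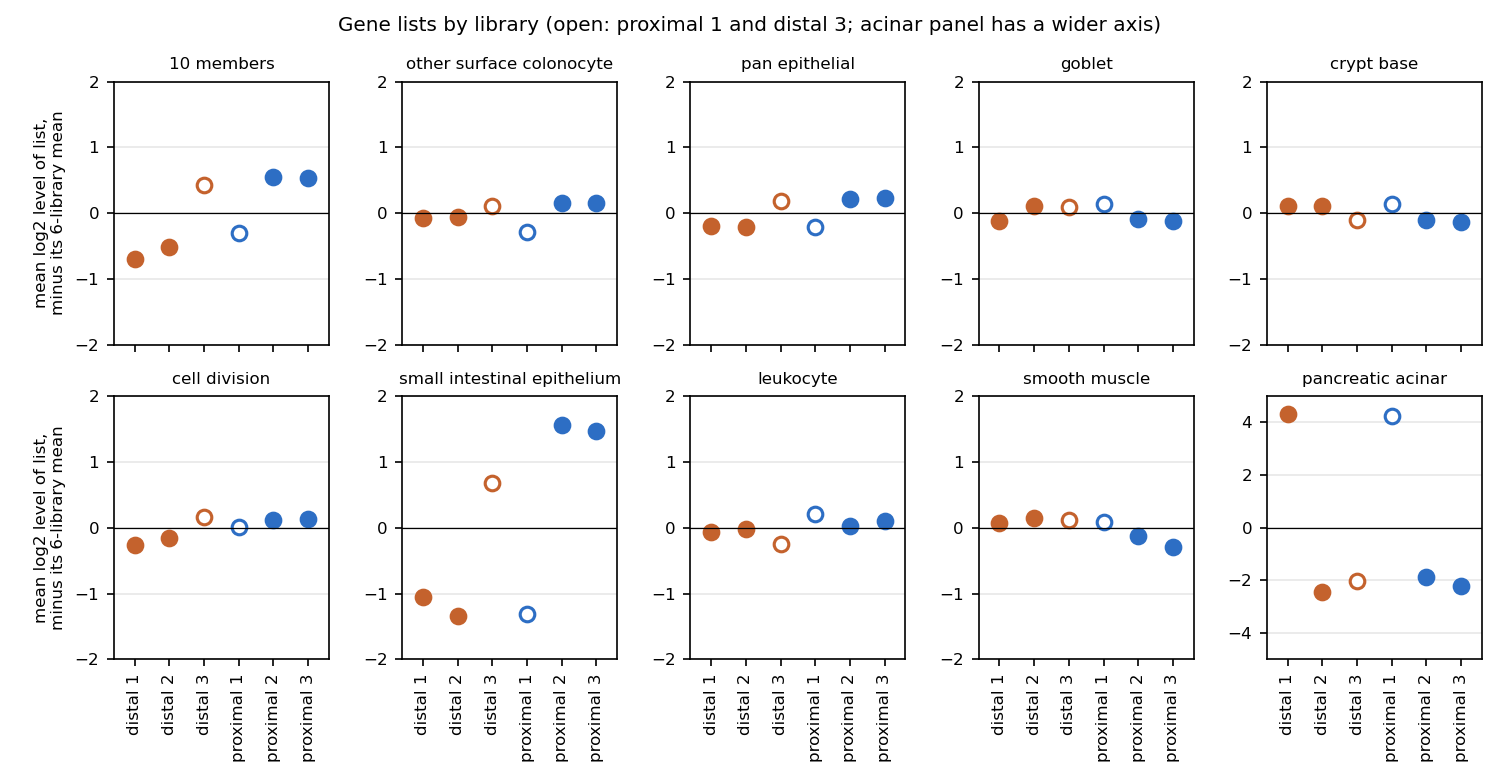
Mean log2 level of each gene list in each library, minus the list's mean over the 6 libraries, distal in orange and proximal in blue, with the libraries labelled distal 3 and proximal 1 as open circles; the acinar panel has a wider axis than the others. Of the lists shown, small intestinal genes separate the libraries most after the acinar genes, which are high in the libraries labelled distal 1 and proximal 1.

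For each of the 10 genes, the most similar profiles were sought as the root mean square distance between 6-library profiles, each centred on its own mean, over 16317 genes. As the libraries fall into 2 clusters, this likeness mainly describes that split and its size. Any feature that a gene shares with its nearest profiles follows from how they were chosen. Nearest to Tmigd1 were Cpn1 (0.216), Cyp2c65 (0.268) and Ugt2b36 (0.293). Cpn1, a carboxypeptidase subunit, had 8.42, 9.93 and 12.38 in distal and 9.74, 12.62 and 12.62 in proximal libraries, so it too was lowest in distal 1. Ildr1 (0.078), Acsf2 (0.080) and Prelid2 (0.089) were nearest to Clca4a. Clca4b had no close match, with Mboat2 (0.405), Gzmb (0.410) and Mmp7 (0.412) as its nearest.

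Guca2b was followed closely by Cyria (0.030), Pdk3 (0.057) and Fam3c (0.066), and Emp1 by Eif4e3 (0.130), Hs3st3b1 (0.130) and Cyp1b1 (0.133). Cyria had 8.94, 9.11 and 10.27 in distal and 9.61, 10.26 and 10.21 in proximal libraries. The low value of Krt20 in the library labelled proximal 1 was shared by Fez2 (0.030), Abhd12 (0.050) and Nudt4 (0.053), of which Fez2 had 11.66, 11.68 and 12.17 in distal and 11.50, 12.17 and 12.15 in proximal libraries. Nearest to Ceacam20 were Hoxa5 (0.132), Zfp53 (0.149) and Bco1 (0.149), and Hoxa5, a homeobox gene of body levels further forward, had 10.32, 10.26 and 9.64 in distal and 9.82, 9.20 and 9.41 in proximal libraries. Guca2a, Ceacam1 and Plac8 vary so little that many genes lie close to them. Their nearest were Mgat4b (0.024), Cyc1 (0.029) and Hoxb9 (0.031) for Guca2a, Tigar (0.018), Ddx51 (0.028) and Cdh10 (0.028) for Ceacam1, and Lbr (0.009), Mob1a (0.026) and Rnf4 (0.027) for Plac8. Among the 10 genes themselves the closest profiles were those of Krt20 and Guca2a (0.126), and the nearest gene to Tmigd1 was Clca4b (0.528).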

How the data were processed

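The authors' deposited values are log2 expression, 1 per probe set and array, made with RMA in Partek 6.5, per the submitters' processing notes. Settings of RMA: not given in the sources used here. Because RMA gives all arrays nearly the same distribution, a shift of most genes would stay hidden. Per the labels' protocols, RNA was amplified with NuGEN kits before biotin labelling. The number of arrays limits the precision.

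Of 45101 probe sets 64 controls were left out, 34945 have 1 gene symbol and 932 several, and symbols were updated by gene identifier with a RefSeq table (GRCm38.p6). The brightest probe set on average stood for each of 18193 genes. Regions were tested in limma 3.58.1 under R 4.3.3 (lmFit, then eBayes; two-sided, Benjamini-Hochberg over all genes, threshold 0.05), without a block for the number in the titles; differences are distal minus proximal. The calculation was tested on simulated data. The 10 genes, the lists of related and cell type genes and the 4-library fit were chosen with earlier results of these data known. Named genes are the 10, up to 4 per list with the largest difference past the threshold in the 4 libraries, otherwise up to 2, the 3 nearest profiles per gene, and Hoxb13, Hoxd13 and Slc51a; Epcam, Krt8, Tspan8, Cdh1, Lgr5, Mki67, Lct, Trp63, Gucy2c, Cftr, Slc9a3 and the Clca relatives were added after their values were seen. Promoter windows come from RefSeq.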

Additional observations from a re-analysis of the deposited data

How the results depend on the processing

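As labelled, the count of called genes was 0, and 0 for the 10 surface genes, in every alternative but 2: array weights gave 5579 genes and 7 of the 10, and leaving out the libraries labelled distal 3 and proximal 1 gave 3494 and 7. The array weights were highest for proximal 2 (6.72) and distal 1 (2.505), and low for distal 2 (0.40) as well as distal 3 and proximal 1. Leaving out 1 library at a time gave 0 and 0 throughout. With the number in the titles as a replicate block the counts were 0 and 0. The labels do not say that a number marks an animal, and the numbers were not taken to pair the libraries. Same-numbered libraries deviated from their group means with correlations of 0.677, -0.448 and 0.678, but these follow the split made by the libraries labelled distal 3 and proximal 1 and do not test shared animals; acinar genes were high in both libraries numbered 1 (12.27 in distal, 12.22 in proximal). No paired analysis was possible in the 4 libraries because they share 1 number only. Signs turned as labelled for Ceacam1 with median centring (0.023), for Guca2a (0.028), Krt20 (0.072), Ceacam1 (0.11) and Plac8 (0.055) centred on the mean of pan-epithelial genes, and for Ceacam1 (0.025) centred on their median. Without 1 library, Krt20 ranged from -0.33 to 0.043 and Ceacam1 from -0.10 to 0.06.

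In the 4 libraries, leaving out 1 gave between 146 and 1633 called genes and between 1 and 4 of the 10: 1633 and 4 without distal 1, 405 and 3 without distal 2, 165 and 1 without proximal 2, and 146 and 1 without proximal 3, Clca4b being called in each. There 1 residual degree of freedom remains and the lone library is assumed to vary like the other pair. A plain linear model, which shares no variance between genes, called 20 genes and 0 of the 10, with 4454 genes and 8 of the 10 at an unadjusted p of 0.05. Centring on the mean of pan-epithelial genes called 9002, mostly higher in distal colon; the mean difference of those genes was -0.42 with Cldn4 and -0.106 without it, and the median of all genes then moved to 0.38. There Guca2a (0.033), Ceacam1 (0.28) and Plac8 (0.35) turned sign, none passing. Plac8 also turned with median centring (0.015), centred on the median of pan-epithelial genes (0.065) and without distal 2, where it ranged from -0.175 to 0.025 over the 4 libraries left out in turn. Leaving out dim genes (mean below 9.31, 9099 genes kept) dropped Clca4b from the test. Of the other values of the 10 genes, 91 kept side and sign in the 4 libraries, 29 lost their call and 3, all of Guca2a, gained one, and the cause was not tested.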
